A study of Mus musculus with 12 samples.

Results

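The 9 genes described here encode the activin β subunits expressed in liver (Inhba, Inhbb, Inhbc and Inhbe), the activin antagonist follistatin (Fst), growth differentiation factor 15 (Gdf15), fetuin-A (Ahsg), fetuin-B (Fetub) and insulin-like growth factor binding protein 2 (Igfbp2). They were chosen by name, as secreted factors of the liver and their activin relatives, with earlier results of these data known. The rule that picks them uses no measured value. Each name matched 1 Ensembl identifier of the mouse build GRCm38, and none was listed at 0 in all 12 libraries. All 9 therefore remained among 22381 identifiers with values, and all 9 were among the 12637 genes that passed the filter on low values.

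Liver RNA was sequenced from female mice of the inbred strain C57BL/6 kept for 14 weeks on a high fat, high sugar diet (HFHS) as a model of steatohepatitis, which is fatty liver with inflammation. Of the 4 groups of 3 libraries, HFHS is titled by the diet alone, with no agent named. HFHS_Curcumin received liposomes loaded with curcumin, a polyphenol of turmeric, and HFHS_Calcitriol received liposomes loaded with calcitriol, the hormonally active vitamin D. Both agents were given intravenously in weeks 12 and 13 of the diet, and tissue was collected 2 weeks after the earlier dose. The remaining group is titled CNT, and its labels carry the same diet text as the other groups. What sets CNT apart from HFHS is thus not stated in the sources used here. No group with empty liposomes was analysed here, so an agent and its carrier or injection cannot be told apart. The age of the mice is not given in the labels, and neither is whether each library came from its own animal, so p-values measure only the spread between these libraries.

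The values are the authors' log2 expression levels, 1 per gene and library. They carry no read counts, so the depth is unknown and no counting interval can be given. Differences are in log2 units, where a difference of 1 is a doubling, and those of weakly expressed genes are probably understated because the values have the pattern of a regularized log2 scale. Each difference between groups was tested with limma across all 12637 genes, and a gene is said to have risen or fallen where its adjusted p was under 0.05. The median standard error (SE) of a difference was 0.1 and the median difference of all genes lay between -0.011 and 0.004 in the 6 comparisons. HFHS libraries 1 and 3 stood apart from the other 10 on the first principal component (-32.8 and -28.4, against 0.4 to 14.4), while HFHS library 2 (3.1) did not. Calls on the HFHS group that ended without those 2 libraries are therefore given with the value found then.

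Activins are dimers of inhibin β subunits. They belong to the transforming growth factor β (TGF-β) family, bind type II receptors such as Acvr2a and Acvr2b, recruit a type I receptor and signal through Smad2 and Smad3. Follistatin binds activins tightly and keeps them from their receptors. Hepatocytes are the main site of Inhbc and Inhbe expression in the body. Gdf15 is a distant relative of the same family that is induced by cell stress and acts on appetite through a receptor in the hindbrain. The fetuins are abundant plasma glycoproteins of the cystatin superfamily: fetuin-A binds calcium phosphate and inhibits the insulin receptor, and fetuin-B inhibits the protease ovastacin and so keeps the egg coat open to fertilization. Igfbp2 carries insulin-like growth factors in plasma.

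Inhbb, Fetub and Ahsg were the 3 members whose HFHS and CNT libraries did not overlap, and the bases before their transcription starts are shown for that reason. The stretches end 1 base before the first RefSeq start of each gene (build GRCm38.p6), except that for Fetub the last 48 bases were left out because they lie in an exon of another annotated Fetub transcript. They are written 5′ to 3′ in the direction of transcription. Capitals mark matches, on either strand, to any of 7 short motifs.

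Inhbb, chr1:119422249-119422498, minus strand: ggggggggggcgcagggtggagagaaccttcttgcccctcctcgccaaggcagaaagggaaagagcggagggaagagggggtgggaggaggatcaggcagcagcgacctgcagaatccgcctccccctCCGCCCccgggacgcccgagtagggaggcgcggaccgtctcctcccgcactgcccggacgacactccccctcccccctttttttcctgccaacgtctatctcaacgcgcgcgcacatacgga

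Fetub, chr16:22918132-22918333, plus strand: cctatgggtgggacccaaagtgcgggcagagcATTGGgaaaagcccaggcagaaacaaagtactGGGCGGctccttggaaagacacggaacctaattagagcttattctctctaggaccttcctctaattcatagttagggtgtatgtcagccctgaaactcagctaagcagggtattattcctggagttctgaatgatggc

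Ahsg, chr16:22891765-22892014, plus strand: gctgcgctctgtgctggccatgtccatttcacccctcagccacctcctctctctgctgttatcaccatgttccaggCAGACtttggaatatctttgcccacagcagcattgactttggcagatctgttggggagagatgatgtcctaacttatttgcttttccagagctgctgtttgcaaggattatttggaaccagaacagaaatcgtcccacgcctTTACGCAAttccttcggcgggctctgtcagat

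The motifs searched were TATAAA (the core promoter box named after it, present in 12.4% of 32851 RefSeq windows of the same 250 bases), CCAAT (33.8%), GGGCGG (GC box, 32.7%), TTGCNNAA (bound by C/EBP factors, 9.6%), GTTAAT (a half-site of the hepatocyte factor HNF1, 6.4%), GTCTG (bound by SMAD proteins, 42.2%) and TGATGNAA (bound by ATF4 with a C/EBP partner, 3.5%). No capitalized match overlaps another. The Inhbb stretch is rich in G and C (68.0%, against a median of 52.4% over all windows) and holds 21 CG pairs, more than 83.7% of windows, with 1 GC box on the opposite strand at -122 to -117, counted back from the start. The Ahsg stretch, which lies in an intron of longer GENCODE transcripts of the gene (50% G and C), holds a C/EBP match on the opposite strand at -32 to -25 and a SMAD match at -174 to -170. The Fetub window holds a CCAAT box at -218 to -214, a GC box at -186 to -181 and, within the bases left out, a TATA box at -31 to -26. The 2 neighbouring fetuin genes thus shared no motif of this set within these windows. A match is a description of the letters, not evidence of binding. A RefSeq window was found for 8 of the 9 members, Fst being the exception.

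Per kilobase of exon, the members spanned a wide range of expression. The mean log2 value minus log2 of the exon length in kilobases was 15.98 for Ahsg, 12.08 for Fetub, 11.43 for Igfbp2, 9.60 for Inhbc, 7.42 for Inhbe, 5.04 for Gdf15, 3.43 for Inhbb, 2.72 for Inhba and 2.39 for Fst, where the median tested gene stood at 5.53. Ahsg was above 99.9% of tested genes, and Fst above 8.9%. In this order 6 of the 8 neighbouring pairs kept their places in all 12 libraries. Fetub exceeded Igfbp2 in 11 of 12, and Inhba exceeded Fst in 8 of 12, so Inhba and Fst did not differ beyond their spread. With the length of the longest annotated transcript in place of all exons, Inhba exceeded Fst in only 3 of 12 libraries. The per-kilobase level of Inhbe rests on a model of 5319 bases whose first exon begins well before the RefSeq start.

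The 2 β subunit genes of classical activins, Inhba and Inhbb, are weakly expressed in these livers, and only Inhbb differed between groups. Inhbb encodes the subunit of activin B and lies on the minus strand of chromosome 1 (chr1:119415465-119422248, GRCm38). It stood at 5.64, 5.69 and 5.97 in the HFHS libraries and at 5.24, 5.23 and 5.24 in the CNT libraries. The curcumin libraries had 5.19, 5.16 and 5.21, and the calcitriol libraries 5.68, 5.77 and 6.22. All 6 HFHS and calcitriol libraries lay above all 6 CNT and curcumin libraries, with a gap between 5.24 and 5.64. The spread was uneven: the CNT libraries were nearly equal, as were the curcumin libraries, while HFHS library 3 and calcitriol library 3 stood apart as the highest of their groups.

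Inhbb rose in HFHS against CNT by 0.53 ± 0.13 (SE, 3 libraries a group, 95% interval 0.25 to 0.82), or 1.45-fold, with an adjusted p of 0.0279. It was 1 of 2 members of 9 that passed in this comparison, where 11.9% of all tested genes passed (6.55% higher and 5.36% lower). An unadjusted p under 0.05 was reached by 3 of 9 members and 31.9% of genes. In calcitriol against CNT it rose by 0.65 ± 0.13 (0.37 to 0.94), or 1.57-fold, with an adjusted p of 0.0226, and was the only 1 of 9 members to pass, against 4.04% of tested genes (1.77% higher), while 2 of 9 members and 23.4% of genes had an unadjusted p under 0.05. The 2 comparisons share the CNT libraries. Without HFHS libraries 1 and 3, the HFHS difference was 0.46 (adjusted p = 0.332). The call against CNT also ended without HFHS library 1 (0.60, adjusted p = 0.059), HFHS library 3 (0.43, 0.107), CNT library 1 (0.54, 0.0646) or CNT library 2 (0.53, 0.088), after quantile normalization (0.37, 0.0934) and when only the HFHS and CNT libraries were fitted (0.53, 0.127). The calcitriol call ended without calcitriol library 2 (0.71, 0.0588) or 3 (0.49, 0.0686) and without CNT library 1 (0.66, 0.056) or 2 (0.65, 0.0832).

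In the curcumin group Inhbb was lower than in HFHS by 0.58 ± 0.13 (95% interval of the difference -0.87 to -0.30), a 1.5-fold difference with groups that did not overlap. Its p in the limma fit of all genes was the 162nd smallest, with an adjusted p of 0.0583, so it did not pass. No member passed in this comparison, in which 0.301% of tested genes did, and 2 of 9 members and 24.7% of genes had an unadjusted p under 0.05. Of 20 alternative settings, 3 brought the limma adjusted p under the threshold. These were without HFHS library 2 (-0.62, adjusted p = 0.00911) or calcitriol library 3 (-0.58, 0.0484) and with a replicate block (-0.58, 0.0413). Of all tested genes 3207, 31 and 242 passed in these settings, in that order, against 38 in the main fit. Over the 20 settings the Inhbb difference ran from -0.65 to -0.48. It did not pass without HFHS libraries 1 and 3, a fit that leaves 1 HFHS library. Curcumin and calcitriol, compared directly, differed at Inhbb by -0.70 ± 0.13 (-0.99 to -0.42), curcumin lower. That was the 10th smallest p of 12637 genes, with an adjusted p of 0.164. No gene passed in the direct comparison (0% of tested genes by limma, with 1873, or 14.8%, at an unadjusted p under 0.05, 1 member among them). With only the curcumin and calcitriol libraries fitted, 214 genes passed, Inhbb among them (-0.70, adjusted p = 0.0296), and 10 genes passed without HFHS libraries 1 and 3, where Inhbb did not (-0.70, 0.0654). Against CNT, the curcumin libraries stood lower by 0.05 ± 0.13 (-0.34 to 0.23), an interval that leaves room for a difference of either sign.

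**Figure D1:**
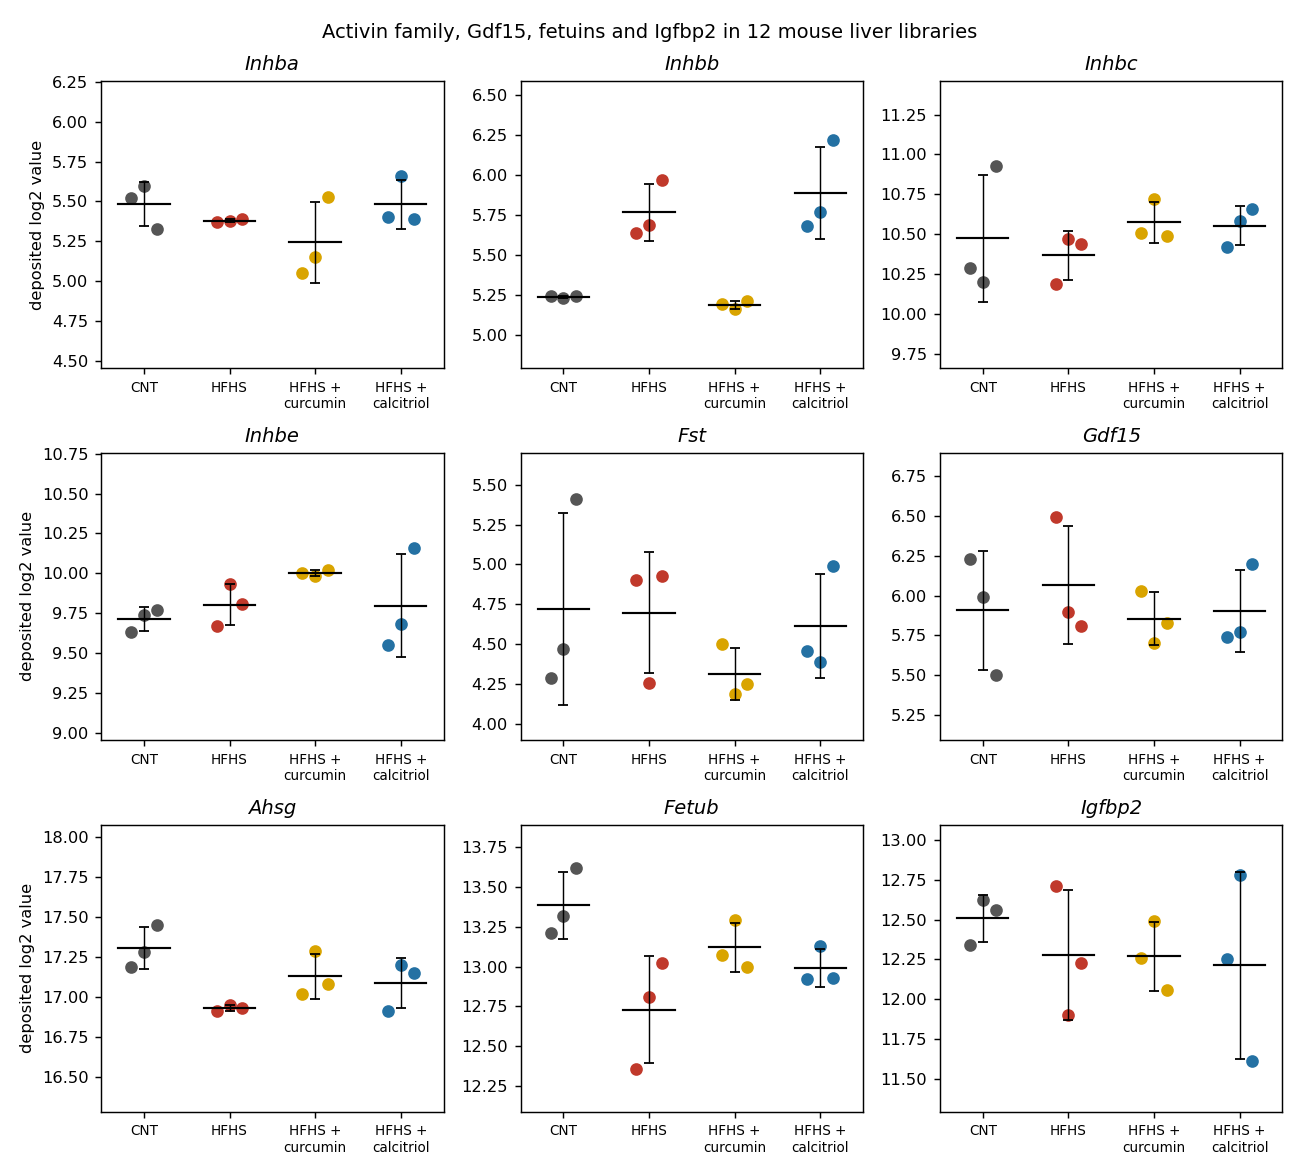
Deposited log2 value (vertical axes, each panel 1 gene on its own scale) of the 9 genes in each library, with 3 points a group, a bar at the group mean and whiskers of 1 SD. In the Inhbb panel the HFHS and calcitriol points lie at or above 5.64 and the CNT and curcumin points at or below 5.24, and in the Ahsg and Fetub panels every HFHS point lies below every CNT point.

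Inhba, which encodes the subunit of activin A, lies on chromosome 13 (chr13:16011851-16031621, plus strand). It had 5.37, 5.38 and 5.39 in HFHS, 5.05, 5.15 and 5.53 in curcumin, 5.40, 5.66 and 5.39 in calcitriol, and 5.52, 5.60 and 5.33 in CNT. The HFHS libraries were nearly equal and fell inside the CNT range (difference -0.11 ± 0.13, adjusted p = 0.591). After quantile normalization every HFHS library lay below every CNT library (-0.28, adjusted p = 0.183). The 3 calcitriol libraries lay above the 3 HFHS libraries, the closest pair touching at 5.39 after rounding, but the difference was 0.11 ± 0.13 (-0.17 to 0.38, adjusted p = 0.675). Curcumin was lower than calcitriol by 0.24 ± 0.13 (adjusted p = 0.39) and lower than CNT by the same amount (adjusted p = 0.338), and the groups overlapped in both.

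Inhbc and Inhbe, the subunits of activins C and E, are hepatocyte genes that lie next to each other on the minus strand of chromosome 10, at chr10:127356322-127370431 and chr10:127348857-127354411, 1.9 kb apart. Inhbc had 10.19, 10.47 and 10.44 in HFHS, 10.51, 10.72 and 10.49 in curcumin, 10.42, 10.58 and 10.66 in calcitriol, and 10.29, 10.20 and 10.93 in CNT. Inhbe had 9.67, 9.93 and 9.81 in HFHS, 10, 9.98 and 10.02 in curcumin, 9.55, 9.68 and 10.16 in calcitriol, and 9.63, 9.74 and 9.77 in CNT. For both genes every curcumin library lay above every HFHS library, by 0.21 ± 0.16 (adjusted p = 0.447) for Inhbc and 0.20 ± 0.13 (adjusted p = 0.334) for Inhbe, neither passing. Inhbe was also higher in every curcumin library than in every CNT library, by 0.29 ± 0.13 (0.01 to 0.56), with an unadjusted p of 0.042 and an adjusted p of 0.249. CNT library 3 was the highest of all 12 for Inhbc and calcitriol library 3 the highest for Inhbe, so the widest group was CNT for the former and calcitriol for the latter. Neither gene passed between HFHS and CNT (-0.11 ± 0.16 and 0.09 ± 0.13, intervals -0.46 to 0.25 and -0.19 to 0.36). The other activin relative of the gonads, the inhibin α gene Inha, was below the filter on low values.

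Fst lies on chromosome 13 (chr13:114452290-114458951, minus strand) and was the member with the widest spread within groups, with a pooled SD of 0.40 that exceeded that of 97.8% of tested genes. Its libraries read 4.90, 4.26 and 4.93 in HFHS, 4.50, 4.19 and 4.25 in curcumin, 4.46, 4.39 and 4.99 in calcitriol, and 4.29, 4.47 and 5.41 in CNT. All 4 groups overlapped. The difference between HFHS and CNT was -0.02 ± 0.28 (-0.64 to 0.59), and curcumin stood 0.39 ± 0.28 below HFHS (-1 to 0.23, adjusted p = 0.408). CNT library 3 was the highest of the 12. Without it, HFHS stood 0.32 above CNT (adjusted p = 0.343), and the sign turned without HFHS library 2 as well (0.19, adjusted p = 0.665).

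Gdf15 lies on chromosome 8 (chr8:70629393-70632456, minus strand). Its values were 6.49, 5.90 and 5.81 in HFHS, 6.03, 5.70 and 5.83 in curcumin, 5.74, 5.77 and 6.2 in calcitriol, and 6.23, 5.99 and 5.50 in CNT. HFHS library 1 was the highest and CNT library 3 the lowest, and all groups overlapped. HFHS exceeded CNT by 0.16 ± 0.21 (-0.31 to 0.63, adjusted p = 0.633), and curcumin and calcitriol stood 0.21 ± 0.21 and 0.16 ± 0.21 below HFHS (adjusted p = 0.56 and 0.709). The intervals reach -0.68 for curcumin and -0.63 for calcitriol, so changes of that size are not excluded by these libraries. The sign of the HFHS difference turned without HFHS library 1 (-0.05) or without CNT library 3 (-0.04).

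**Figure D2:**
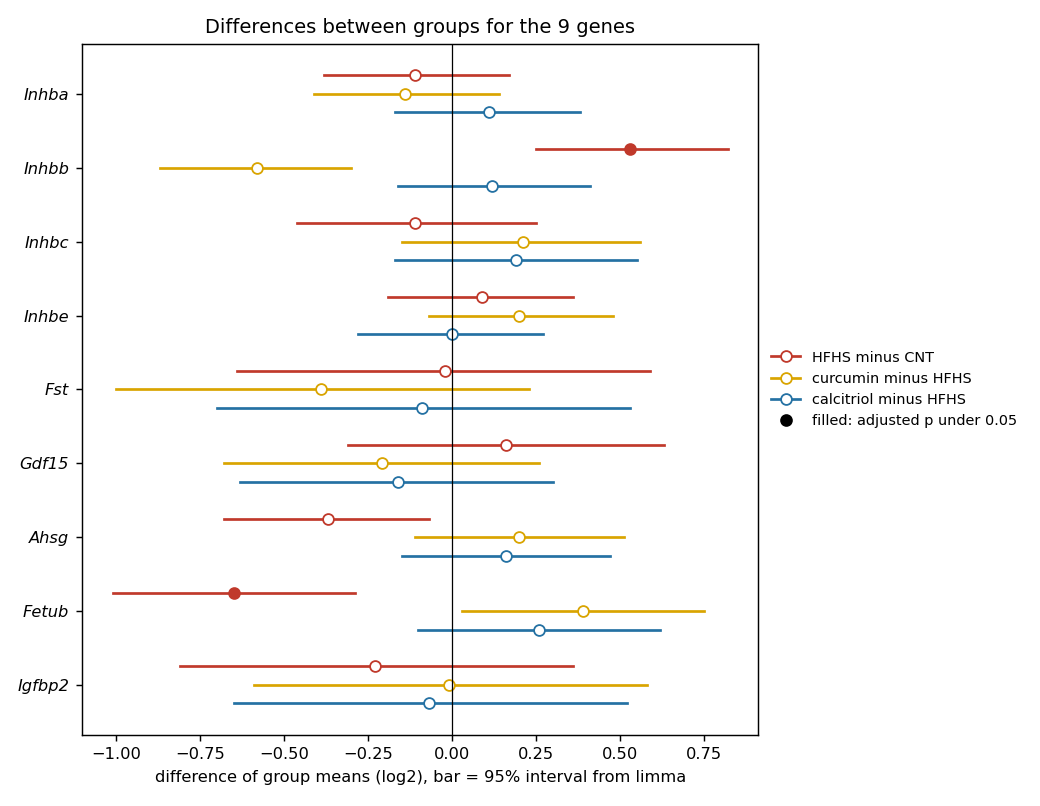
Difference of group means in log2 units (horizontal axis) for the 9 genes, for HFHS minus CNT, curcumin minus HFHS and calcitriol minus HFHS, with 95% intervals from limma, and filled points for an adjusted p under 0.05. Only Inhbb (0.53) and Fetub (-0.65) in HFHS minus CNT are filled. The 3 comparisons share the HFHS libraries, so opposite signs between them are not independent.

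The fetuins were the most abundant members and both stood lower in HFHS than in CNT, Fetub past the threshold and Ahsg not. Fetub (chr16:22918334-22939778, plus strand) had 12.36, 12.81 and 13.02 in HFHS, 13.07, 13.29 and 13.00 in curcumin, 12.92, 13.13 and 12.93 in calcitriol, and 13.21, 13.32 and 13.62 in CNT. All HFHS and all calcitriol libraries lay below all CNT libraries, while 1 curcumin library exceeded the lowest CNT library. Fetub fell in HFHS against CNT by 0.65 ± 0.16 (95% interval of the difference -1.01 to -0.29), a 1.57-fold lower level, with an adjusted p of 0.0308. Leaving out HFHS libraries 1 and 3 gave -0.57 (adjusted p = 0.223). HFHS library 1 was the lowest of all 12, and without it the difference was -0.46 (adjusted p = 0.104). The call ended as well without CNT library 2 (-0.68, 0.0838) or 3 (-0.53, 0.0702), after quantile normalization (-0.40, 0.117) and with only the HFHS and CNT libraries fitted (-0.65, 0.151).

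The mean Fetub value of each treated group lay between those of HFHS and CNT, but both treated groups overlapped HFHS. HFHS library 3 (13.02) exceeded curcumin library 3 (13.00) and calcitriol libraries 1 and 3 (12.92 and 12.93). Curcumin exceeded HFHS by 0.39 ± 0.16 (0.03 to 0.75, unadjusted p = 0.0348, adjusted p = 0.172) and calcitriol by 0.26 ± 0.16 (-0.10 to 0.62, adjusted p = 0.391). Calcitriol stood 0.39 ± 0.16 below CNT (-0.75 to -0.03, adjusted p = 0.182), and curcumin 0.26 ± 0.16 below CNT (-0.62 to 0.10, adjusted p = 0.437). Curcumin and calcitriol differed by 0.13 ± 0.16 (-0.23 to 0.49, adjusted p = 0.741). None of these 5 differences passed. Without HFHS library 1 the differences from HFHS were 0.21 for curcumin and 0.08 for calcitriol, and after quantile normalization they were 0.18 and 0.16.

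Ahsg (chr16:22891277-22899449, plus strand) is among the most abundant transcripts of the liver. Its values were 16.91, 16.95 and 16.93 in HFHS, 17.02, 17.29 and 17.08 in curcumin, 16.91, 17.20 and 17.15 in calcitriol, and 17.19, 17.28 and 17.45 in CNT. The HFHS libraries were nearly equal and lay below every CNT and curcumin library. The HFHS difference from CNT was -0.37 ± 0.14 (-0.68 to -0.07), with an unadjusted p of 0.0211 and an adjusted p of 0.0956. With limma's trend and robust options switched off, the adjusted p was 0.0358. After quantile normalization the difference was -0.09, and the HFHS and CNT groups overlapped for both fetuins. Curcumin exceeded HFHS by 0.20 ± 0.14 (adjusted p = 0.392) and calcitriol by 0.16 ± 0.14 (adjusted p = 0.563), and both signs turned after quantile normalization (-0.03 and -0.06).

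Counted together, 3 of 9 members did not overlap between HFHS and CNT, where 26.9% of all tested genes did not. In curcumin against HFHS 4 of 9 did not (23.6% of genes), in calcitriol against HFHS 1 of 9 (24.4%), in curcumin against calcitriol 1 of 9 (28.7%), in curcumin against CNT 2 of 9 (25.6%) and in calcitriol against CNT 2 of 9 (32.3%). The 4 members in curcumin against HFHS were Inhbb, Inhbc, Inhbe and Ahsg, and that count was 5 after median centring and 2 after quantile normalization. The counts of 3 (HFHS against CNT), 2 (calcitriol against CNT) and 1 (calcitriol against HFHS) became 2, 1 and 0 after quantile normalization. In HFHS against CNT the members then differed: both fetuins overlapped, and Inhba (-0.28) joined Inhbb. In curcumin against CNT no member passed (3.51% of genes passed), and 1 of 9 members and 18.6% of genes had an unadjusted p under 0.05. In calcitriol against HFHS no member passed (2.21% of genes passed) and none had an unadjusted p under 0.05 (21.3% of genes had), the widest difference being 0.26 for Fetub.

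Ahsg and Fetub are neighbours, 18.9 kb apart, in a cluster of cystatin superfamily genes that also holds Hrg (histidine-rich glycoprotein) and the kininogen genes Kng2 and Kng1, all of them liver genes for plasma proteins. Of 7 listed relatives of the fetuins, 5 were tested and 2 were at 0 in all libraries. In HFHS against CNT 1 of the 5 rose and 3 fell, with a median difference of -0.37, where 6.55% of all tested genes rose and 5.36% fell. The 13 tested hepatocyte markers described below had a median of -0.36 in the same comparison, so a fall of this size was not particular to the cluster. Kng1 fell by 0.62 ± 0.13 (adjusted p = 0.0191), Kng2 by 0.37 ± 0.10 (0.0395) and Hrg, named here after its values were seen, by 0.54 ± 0.16 (0.0495). Cstb, an intracellular inhibitor of cathepsins that lies elsewhere, rose by 0.41 ± 0.11 (0.0401). The tested genes that flank the cluster within 200 kb, Tbccd1 (-0.20), Dnajb11 (-0.16), Eif4a2 (-0.31 ± 0.15), Rfc4 (0.16) and St6gal1 (0.05), did not pass. Eif4a2 lay within its SE of Kng2 and of Ahsg (-0.37 ± 0.14), which did not pass either. The kininogen and Hrg calls ended without HFHS libraries 1 and 3, with differences of -0.51 (Kng1), -0.32 (Kng2) and -0.27 (Hrg), and after quantile normalization, with -0.23, -0.12 and -0.24 in the same order. Of 20 alternative settings the call ended in 6 for Kng1, 13 for Kng2, 15 for Hrg and 12 for Cstb (0.19 without HFHS libraries 1 and 3), and leaving out HFHS library 1 or 3 alone ended all 4. Kng1 and Kng2 are close copies of each other, so the authors' counting could have split reads between them and each value is uncertain. In curcumin and in calcitriol against HFHS none of the cluster's genes passed, Hrg being nearest with 0.57 ± 0.16 (adjusted p = 0.0868) and 0.65 ± 0.16 (0.0599).

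**Figure D3:**
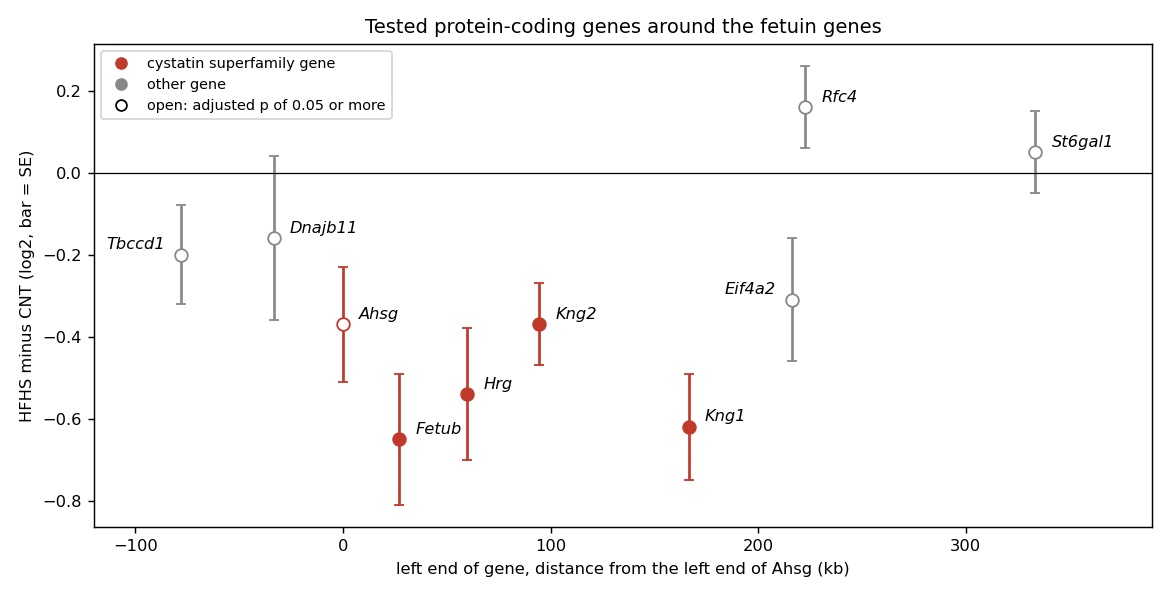
HFHS minus CNT difference in log2 units with its SE (vertical axis) of each tested protein-coding gene around the fetuin genes, against the distance of the gene's left end from that of Ahsg in kb. The 5 cystatin superfamily genes lie between -0.65 and -0.37 and 4 of them are filled (adjusted p under 0.05), while the flanking genes lie between -0.31 and 0.16 and are open.

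Igfbp2 lies on chromosome 1 (chr1:72824503-72852474, plus strand). Its libraries had 12.71, 11.90 and 12.23 in HFHS, 12.26, 12.49 and 12.06 in curcumin, 12.25, 12.78 and 11.61 in calcitriol, and 12.34, 12.62 and 12.56 in CNT. Calcitriol held both the highest and the lowest library of the 12. The pooled SD of 0.38 was wider than that of 97.4% of tested genes, and HFHS differed from CNT by -0.23 ± 0.27 (-0.81 to 0.36, adjusted p = 0.588). Curcumin and calcitriol differed from HFHS by -0.01 ± 0.27 and -0.07 ± 0.27. Its family relative Igfbp1, which is raised by fasting and low insulin, was higher in calcitriol than in CNT by 1.5 ± 0.35 (adjusted p = 0.0443). Every library of the other groups lay above CNT (8.98 to 9.60). HFHS ran from 10.08 to 11.27, curcumin from 9.97 to 10.04 and calcitriol from 10.08 to 11.23, so the difference was not particular to calcitriol. Calcitriol against CNT was the only call among the 11 tested genes of the insulin-like growth factor list in the 6 comparisons. It ended in 12 of 20 alternative settings, among them 5 of the 6 that left out a calcitriol or CNT library (1.31 to 1.64, calcitriol library 1 being the exception). In HFHS against CNT the list's median difference was 0.19, with no call.

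Some libraries stood at the end of the range for several members. CNT library 3 was the highest of the 12 for Ahsg, Fetub, Inhbc and Fst and the lowest for Gdf15. HFHS library 1 was the lowest for Ahsg, Fetub and Inhbc and the highest for Gdf15. Calcitriol library 3 was the highest for Inhbb and Inhbe and the lowest for Igfbp2. Of 36 pairs of members, 1 was correlated past the threshold over the 12 libraries after adjustment: Ahsg and Fetub had r = 0.85 (permutation p = 0.00027, adjusted 0.00972) and rho = 0.89 (permutation p = 0.00018, adjusted 0.00648), two-sided with 100000 permutations. The value was 0.82 without HFHS library 1 and CNT library 3, the 2 farthest from the median of Ahsg, and 0.59 for deviations from group means, a description over the same libraries. The permutations ignored the groups, so the permutation p-values do not separate a link within groups from differences between groups. Gdf15 against Fetub had r = -0.68 (permutation p = 0.0166, adjusted 0.187) and rho = -0.41 (permutation p = 0.192, adjusted 0.683), and r was 0.02 without the same 2 libraries, so it rests on them (-0.86 for deviations from group means). Gdf15 against Inhbc had r = -0.68 (permutation p = 0.0153, adjusted 0.187) and rho = -0.58 (permutation p = 0.0516, adjusted 0.40), and r was -0.31 without them (-0.65 for deviations from group means). Inhbe against Igfbp2 had r = -0.65 (permutation p = 0.0207, adjusted 0.187) and rho = -0.57 (permutation p = 0.0555, adjusted 0.40), with r = -0.64 without calcitriol libraries 1 and 3 (-0.72 for deviations from group means). For such deviations some pairs not past the threshold had positive values above the 0.59 of the fetuins. They were Inhbb with Inhbe (0.80, r = 0.08), Inhbc with Fetub (0.73, r = 0.56) and Inhbc with Ahsg (0.73, r = 0.54), not tested within groups. Without HFHS library 3 and calcitriol library 3, the 2 farthest from the median of Inhbb, r was -0.50 for Inhbb with Inhbe. Without HFHS library 1 and CNT library 3, the 2 farthest for Inhbc, r was -0.21 for Inhbc with Fetub and 0.07 for Inhbc with Ahsg.

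The genes whose pattern over the 12 libraries was most like each member are given as a description, since the libraries share their groups and the median tested gene has another gene at r = 0.934. For Inhbb they were Eme2 (r = 0.924), Sema3f (0.912) and Atp2b1 (0.908). Cadm4 and Sil1 appeared for both fetuins: Fetub had Cadm4 (0.941), Sil1 (0.931) and Mospd3 (0.918), and Ahsg had Ppib (0.931), Cadm4 (0.925) and Sil1 (0.923). Sil1 and Ppib encode proteins of the endoplasmic reticulum that assist folding. Inhba had Luc7l2 (0.970), Xpo4 (0.929) and Kmt2e (0.894). Inhbc had Serpina11 (0.918), Cnpy3 (0.912) and Ufsp1 (0.907), and Inhbe had Tsacc (0.884), Dpy19l1 (0.882) and Zfp661 (0.801). Gdf15 had Adgrg6 (0.871), Car13 (0.868) and Il1rn (0.865), Fst had Tmem51 (0.918), Gm4430 (0.908) and Ly6e (0.897), and Igfbp2 had Trim62 (0.862), Tdp2 (0.854) and Mri1 (0.763). Only Inhba and Fetub of the 9 had a best match here above 0.934. That median allowed any other tested gene, while members and genes without a symbol were left out of the matches here.

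Among the receptors that activins and their relatives act through, Acvr2b was the only call in the 6 comparisons. Of 12 listed activin and TGF-β receptors 10 were tested, and in HFHS against CNT 1 fell and none rose, 5 had an unadjusted p under 0.05, and the median difference was 0.03. The gene that fell was Acvr2b, a type II receptor of activins, by 0.65 ± 0.12 (adjusted p = 0.0121). Its means were 4.83 ± 0.20 (SD, n = 3 libraries) in HFHS, 4.98 ± 0.12 in curcumin, 5.16 ± 0.04 in calcitriol and 5.48 ± 0.16 in CNT, and it was also lower in curcumin than in CNT, by 0.50 ± 0.12 (adjusted p = 0.0353). The HFHS call ended without CNT library 2 (-0.57, adjusted p = 0.0531), without HFHS libraries 1 and 3 (-0.42, 0.268) and with only the HFHS and CNT libraries fitted (-0.65, 0.123). The curcumin call ended in 8 of 20 alternative settings, with differences from -0.54 to -0.42, each leaving out 1 curcumin, calcitriol or CNT library. Acvr1c, a type I receptor of several activins, was below the filter.

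Among 13 listed antagonists and pseudoreceptors of the family 7 were tested, 3 (Grem1, Cer1 and Tdgf1) were at 0 in all libraries and 3 (Fstl3, Inha and Nog) were below the filter. None passed in any of the 6 comparisons, the smallest p in HFHS against CNT belonging to Ltbp1, a matrix protein that tethers latent TGF-β (0.70 ± 0.21, adjusted p = 0.0528; 0.09 without HFHS libraries 1 and 3). The SMAD list had 14 tested genes of 14. In HFHS against CNT 2 rose, none fell and the median was -0.08: Skil, a corepressor of SMADs, by 0.42 ± 0.12 (adjusted p = 0.0427), and Pmepa1, a TGF-β target that limits SMAD signalling, by 0.92 ± 0.26 (0.0439). Without HFHS libraries 1 and 3 these stood at 0.25 (adjusted p = 0.587) and 0.14 (0.829), and each lost its call without either of those libraries alone. Skil also rose in calcitriol against CNT, by 0.55 ± 0.12 (adjusted p = 0.0302), a call that ended without any 1 of the calcitriol libraries and without CNT library 1 or 2 (0.48 to 0.58). In curcumin against CNT Smad5 fell by 0.25 ± 0.06 (0.0452) and Smad2, which carries the activin signal, by 0.29 ± 0.07 (0.0496). Both calls ended in 16 of 20 alternative settings. For Smad5 the HFHS (9.01 to 9.12) and calcitriol (8.99 to 9.07) libraries also lay below every CNT library (lowest 9.16). The Smad5 difference was thus not particular to curcumin. For Smad2 every calcitriol library (7.81 to 7.91) lay below those of CNT (7.97 to 8.09), while HFHS overlapped CNT. Neither gene passed in HFHS or in calcitriol against CNT.

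Of 17 other TGF-β family ligands 11 were tested. None passed in HFHS against CNT (median 0.14), and Bmp2, which liver endothelial cells make, rose in calcitriol against CNT by 0.52 ± 0.12 (adjusted p = 0.036), a call that ended in 8 of 20 alternative settings (0.39 to 0.52). All 24 other hepatokines on the list were tested, of which 2 rose and 4 fell in HFHS against CNT with a median of -0.30. Mst1 and Gpnmb were called too and are named after their values were seen. Mst1 differed by -0.28 (-0.17 without HFHS libraries 1 and 3, adjusted p = 0.541) and lost its call in 11 of 20 alternative settings. Gpnmb, also a macrophage marker, differed by 2.64 (0.65 without HFHS libraries 1 and 3, adjusted p = 0.144) and lost its call in 15 of 20. Fgf21, a fasting and stress hormone of the liver, rose by 1.04 ± 0.17 (adjusted p = 0.00951), and Enho (-0.98 ± 0.21, adjusted p = 0.0196) and Angptl8, an insulin-induced inhibitor of lipoprotein lipase (-0.97 ± 0.21, 0.0214), fell. Fgf21 kept its call without any single library, but stood at 0.83 (adjusted p = 0.0643) without HFHS libraries 1 and 3 and at 1.04 (0.104) with only the HFHS and CNT libraries fitted. Enho and Angptl8 lost theirs without HFHS library 1 or 3 (adjusted p from 0.0575 to 0.0801), without both of them (-1.09, adjusted p = 0.275, for Enho and -0.80, 0.422, for Angptl8), with only the 2 groups fitted, and without CNT library 2 for Enho (0.0531) or CNT library 1 for Angptl8 (0.0532). Angptl8 was lower than CNT in both treated groups as well, by 1.0 ± 0.21 in curcumin (adjusted p = 0.0295) and 1.01 ± 0.21 in calcitriol (0.0305), calls that ended in 5 and 6 of 20 alternative settings. Fgf21 was higher in curcumin than in CNT by 0.68 ± 0.17 (0.0489), a call that ended in 13 of 20 alternative settings.

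Gdf15, Fgf21 and Inhbe are known targets of the integrated stress response, in which the factor ATF4 raises genes of amino acid supply and stress. Of 25 listed genes of that response 22 were tested, and in HFHS against CNT 2 rose (Fgf21 and Ddit4, the latter by 0.64 ± 0.19, adjusted p = 0.0483), none fell and the median was 0.00. In calcitriol, Chac1, an enzyme that degrades glutathione, rose against HFHS by 1.07 ± 0.19 (adjusted p = 0.027) and against CNT by 1.02 ± 0.19 (0.0194). Curcumin lay in the same direction, with all 3 libraries (6.71 to 7.26) above those of HFHS (6.23 to 6.29) and CNT (6.24 to 6.36), but did not pass (0.77 ± 0.19, adjusted p = 0.0724, and 0.72 ± 0.19, 0.065), and it differed from calcitriol by -0.30 ± 0.19 (adjusted p = 0.485). Chac1 was the only call of the list in calcitriol against HFHS, where the list's median was -0.24. Without calcitriol library 2 these values were 0.86 (adjusted p = 0.0996) and 0.81 (0.0647), and without library 3 they were 1.03 (0.12) and 0.98 (0.0776). The call against HFHS also ended without HFHS library 1 (1.06, 0.085), library 3 (1.06, 0.0715) or both (1.04, 0.301), and that against CNT without CNT library 1 (0.99, 0.0542) or 2 (1.02, 0.0729). The Ddit4 call ended in 15 of 20 alternative settings, and without HFHS libraries 1 and 3 the difference was 0.64 (adjusted p = 0.227).

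Markers of the cell types in whole liver moved with some of these results. In such tissue, fewer cells of a type and less RNA per cell cannot be told apart. Of 14 hepatocyte markers 13 were tested, none at 0: in HFHS against CNT 4 fell (Serpina1a, Serpina1c, Cps1 and Apoh, the marker genes called here and below being named after their values were seen) and none rose, 1 of 13 had a difference above 0, and the median was -0.36, near the difference of Ahsg. As the mean deviation of the 13 markers from their 12-library means, HFHS ranged from -0.37 to 0.03, calcitriol from -0.10 to 0.08, curcumin from 0.01 to 0.18 and CNT from 0.13 to 0.21. HFHS library 1, lowest for both fetuins, was lowest on this score too. The other HFHS libraries did not follow the score: library 2, at 0.03, had a lower Fetub value (12.81) than library 3, at -0.30 (13.02). Ahsg was nearly equal in HFHS libraries 1, 2 and 3 (16.91, 16.95 and 16.93). The log2 of the summed marker levels ranged from 20.72 to 21.04 in HFHS and from 20.98 to 21.23 in CNT, which overlap. The part of the hepatocyte markers in the fetuin results was not tested.

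Of 12 liver endothelial markers, all tested and none at 0, the log2 of the summed level was 12.09 to 12.58 in HFHS, 12.52 to 12.63 in calcitriol, 11.90 to 12.11 in curcumin and 11.83 to 12.47 in CNT. None passed in HFHS against CNT (10 of 12 above 0, median 0.18), and 1 rose in calcitriol against CNT (12 of 12 above 0, median 0.35), namely Bmp2, which also stands on the ligand list. As a mean deviation like that of the hepatocyte markers, the endothelial score was 0.20 to 0.30 in calcitriol and -0.26 to -0.11 in curcumin, groups that did not overlap, as for Inhbb. CNT libraries 1 and 3, with endothelial scores of 0.17 and -0.40, both had an Inhbb value of 5.24, and HFHS library 2, with a score of -0.11, had 5.69. HFHS library 3 and calcitriol library 3, with the highest Inhbb values of their groups (5.97 and 6.22), also had the highest endothelial scores of their groups (0.33 and 0.30). On the adipocyte markers, of which 3 of 8 were tested, HFHS library 3 had the highest score of the 12 libraries (2.45) and calcitriol library 3 the lowest (-0.80). Macrophage markers (12 of 12 tested, none at 0) summed to 12.81 to 13.45 in HFHS, 13.24 to 13.60 in calcitriol, 12.95 to 13.26 in curcumin and 12.55 to 12.91 in CNT, with 5 of 12 risen in HFHS against CNT (Cd68, Gpnmb, Trem2, Mmp12 and Cd14) and 3 in calcitriol against CNT (Clec4f, Vsig4 and Csf1r). Stellate cell and fibroblast markers (12 of 12 tested, none at 0) summed to 13.29 to 13.94 in HFHS, 13.27 to 13.36 in calcitriol, 13.41 to 13.51 in curcumin and 13.01 to 13.29 in CNT, with 5 of 12 risen in HFHS against CNT (Lrat, Des, Col3a1, Tagln and Dcn). The part of these markers in the Inhbb results was not tested.

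**Figure D4:**
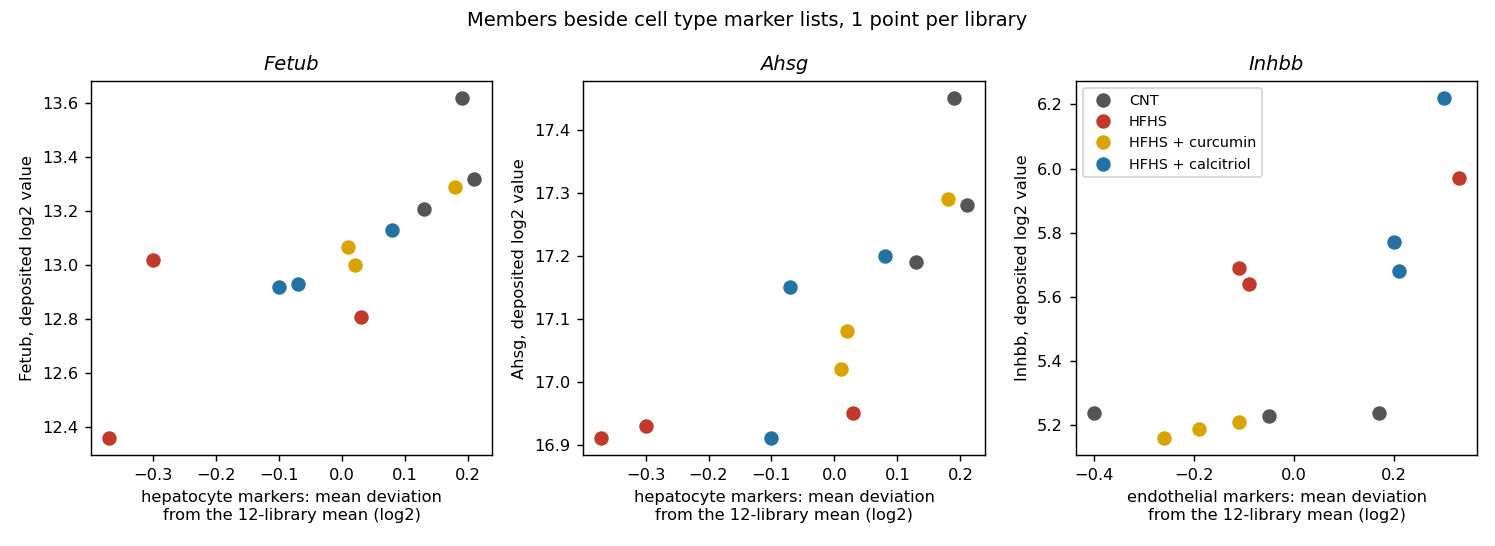
Deposited log2 value of Fetub, Ahsg and Inhbb (vertical axes) in each of the 12 libraries against the mean deviation of hepatocyte markers (Fetub and Ahsg) or liver endothelial markers (Inhbb) from their 12-library means in log2 units, with points coloured by group. HFHS library 1 lies lowest for both fetuins at a marker score of -0.37, while HFHS library 2, at 0.03, lies below HFHS library 3, at -0.30, for Fetub. In the Inhbb panel the CNT points stay near 5.24 from -0.40 to 0.17.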

How the data were processed

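The values are log2 expression levels per Ensembl gene as deposited by the authors, 1 file for each of the 12 libraries. Per the submitters' processing notes, which give no roles, STAR 2.4.0d and DESeq2 1.8.1 were used with the build GRCm38. The transformation is not given in the sources used here. The values, from -3.63 to 20.7, have the pattern of a regularized log2 scale, in which changes of weakly expressed genes are shrunk. No counts were analysed here, so depth and counting error are unknown.

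Of 45792 identifiers, 23411 were at 0 in every library and were dropped. Symbols and coordinates came from GENCODE M21 and promoter windows from RefSeq (GRCm38.p6). The 12637 genes at 3.32 (log2 of 10) or more in at least 3 libraries were fitted with limma 3.58.1 in R 4.3.3, with 4 group means, a shared spread, trend and robust moderation, two-sided tests and p-values adjusted by Benjamini-Hochberg across the whole table. The script was tested on simulated data. Correlations between members used permutation tests over the 12 libraries, without regard to group, in Python 3.11.15. The alternatives were 2 other filters, 2 other scalings, plain moderation, fitting only the groups compared, a replicate block, leaving out each library, and leaving out HFHS libraries 1 and 3 together.

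The members and lists were chosen with earlier results of these data known. Named genes were the 9 members and, in each of 8 pathway lists, the genes past the threshold with the smallest p, up to 3 in HFHS against CNT and up to 2 in each other comparison, or the gene with the smallest p where none passed. For each member the 3 genes with the highest Pearson r were also named. One list gene is counted but its result is not reported here.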

Additional observations from a re-analysis of the deposited data

How the results depend on the processing

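Of 1080 member differences under the 20 alternatives, 1013 kept their sign and their side of the threshold, 17 lost a call, 6 gained one and 44, none of them a call, turned sign. The cause was not tested. After quantile normalization the signs that turned were Inhbc (0.01) and Igfbp2 (0.05) in HFHS against CNT, Ahsg in curcumin against HFHS (-0.03), Fst (0.01) and Ahsg (-0.06) in calcitriol against HFHS, and Inhbc (-0.01) and Igfbp2 (-0.02) in curcumin against calcitriol. Median centring turned Igfbp2 in curcumin against HFHS (0.01). Without HFHS libraries 1 and 3, the signs that turned were Gdf15 in HFHS against CNT (-0.01), Fst (0.05) and Igfbp2 (0.38) in curcumin against HFHS, and Gdf15 (0.01), Fst (0.35) and Igfbp2 (0.32) in calcitriol against HFHS. Leaving out 1 library at a time moved Fst from -0.24 to 0.32, Gdf15 from -0.05 to 0.32 and Inhbc from -0.24 to 0.12 in HFHS against CNT. In calcitriol against HFHS it moved Fst from -0.30 to 0.03, Gdf15 from -0.31 to 0.05, Igfbp2 from -0.35 to 0.24 and Inhbb from -0.04 to 0.22, and in curcumin against HFHS Igfbp2 from -0.20 to 0.21. In curcumin against calcitriol Ahsg ran from -0.05 to 0.10, Gdf15 from -0.14 to 0.10, Igfbp2 from -0.24 to 0.34 and Inhbc from -0.06 to 0.07. In curcumin against CNT Gdf15 ran from -0.25 to 0.11 and Inhbc from -0.04 to 0.33, and in calcitriol against CNT Fst from -0.33 to 0.23, Igfbp2 from -0.57 to 0.01, Inhbc from -0.05 to 0.31 and Inhbe from -0.10 to 0.20.

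The number of members called in HFHS against CNT was 0 after quantile normalization, with only the 2 groups fitted and without HFHS libraries 1 and 3, and 0 to 2 when 1 library was left out. In curcumin against HFHS it was 1 with the replicate block (Inhbb) and 0 to 1 when 1 library was left out. With only the 2 groups fitted it was 1 in curcumin against calcitriol (Inhbb, adjusted p = 0.0296) and 1 in curcumin against CNT (Inhbe, adjusted p = 0.0496). In calcitriol against CNT it was 0 to 1 when 1 library was left out. The labels give no pairing, so the replicate numbers were not taken as one in the main fit. Of 18 same-numbered pairs of libraries 9 had deviations correlated over 0.1 (r from -0.38 to 0.37). Of 12 libraries, 9 correlated best with a library of their own number in another group. Whether same-numbered libraries are linked was not tested.

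Over all tested genes, the 1505 calls in HFHS against CNT became 13 with only the 2 groups fitted, 68 without HFHS libraries 1 and 3, 1862 with the replicate block and 135 (without CNT library 2) to 3717 (without HFHS library 2) when 1 library was left out. The 38 in curcumin against HFHS became 242 with the replicate block and 0 to 3207, and the 279 in calcitriol against HFHS became 0 with only the 2 groups fitted and 4 to 2194. The 0 in curcumin against calcitriol became 214 with only the 2 groups fitted and 10 without HFHS libraries 1 and 3. The 443 in curcumin against CNT ran from 94 to 949, and the 511 in calcitriol against CNT from 73 to 1142, when 1 library was left out. Of 26 list results given by name, 25 passed, against 4 with only the 2 groups fitted, 10 without HFHS libraries 1 and 3, 14 after quantile normalization and 5 to 26 when 1 library was left out, and none turned sign.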

Other observations

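Markers of cell types other than hepatocytes, endothelial cells, macrophages and stellate cells varied between libraries as follows. Erythroid markers (6 of 8 tested) summed on the log2 scale to 13.26 to 13.38 in curcumin and 13.30 to 13.61 in calcitriol, above the 12.03 to 12.92 of HFHS and the 11.88 to 12.97 of CNT, and the heme synthesis gene Alas2 was the only 1 that rose, in calcitriol against HFHS (0.57, limma adjusted p = 0.0415), calcitriol against CNT (0.81, 0.00814) and curcumin against CNT (0.66, 0.0171). Cholangiocyte markers (7 of 8 tested) summed to 10.20 to 11.84 in HFHS, 10.01 to 10.59 in CNT, 10.19 to 10.33 in curcumin and 9.57 to 10.16 in calcitriol, with no call in any of the 6 comparisons. Adipocyte markers had 3 of 8 tested and no call. Their score was 2.45 in HFHS library 3 alone, against -0.29 and -0.03 in HFHS libraries 1 and 2 and at most 0.26 in the other groups. Lymphocyte and neutrophil markers (8 of 10 tested) and mesothelial markers (3 of 6 tested, Krt14 at 0) gave no call. Of the exocrine pancreas markers 1 of 7 was tested, Cela1, and it fell in HFHS and in calcitriol against CNT (-0.57 in both). The tested neighbours of Inhbe and Inhbc within 100 kb gave no call in HFHS against CNT or in either treatment against HFHS.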
